A study of Mus musculus with 4 samples.

Results

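The loci of 10 genes of the ETS family of transcription factors, Fli1, Erg, Ets1, Ets2, Etv2, Etv6, Elf1, Elk3, Elf4 and Gabpa, were searched for RUNX1 binding and for the histone mark H3K27me3. A locus was the gene body on mm10 with 50 kb to each side, and a peak belonged to it when its summit lay inside. RUNX1 summits of 2 ChIP-seq libraries were widened to 200 bp on either side, and overlapping ones were joined, which gave 24972 sites, of which 50 lay at the ETS loci, from 3 to 9 for each gene. They came from 37 of 18389 peaks of the list labelled -DOX and 44 of 21831 peaks of the list labelled +DOX. Of the H3K27me3 peaks, 2 of 6356 lay there in the library titled untr and 5 of 7233 in the library titled DOX. No site lay in the loci of 2 genes.

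All 4 libraries came from mouse embryonic stem cells (ESCs) with a Tet-on dominant-negative FOS (dnFOS), a peptide that keeps JUN-related proteins off DNA when Doxycycline (DOX) induces it, differentiated for 2 days to floating hematopoietic progenitor (HP) cells. The genotype is thus shared by the untreated cells, and it is an engineered ESC system in vitro. For the RUNX1 libraries the run names inside the peak lists give the opposite treatment to the sample labels, so the libraries are called by their labels and every direction turns around if these are wrong. The H3K27me3 libraries have titles that go against their treatment labels, so nothing is said about DOX for them. Their labels name an H3K27me3 antibody while the protocol names one against RUNX1. With 1 library per condition, differences between conditions could not be tested, and intervals cover counting error over sites only. The peak lists give neither RNA levels nor tag counts, so the cells could not be checked by marker genes and the depth is unknown. The strength of a peak is therefore given as the percentile of its -log10 q within its own list.

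ETS factors share a DNA-binding domain that reads a GGAA core, and several of them are built into the gene regulatory networks of endothelium and blood. Fli1 and Erg act with RUNX1, GATA2 and TAL1 in hematopoietic stem and progenitor cells, while Etv2 acts earlier, when mesoderm takes on the blood and endothelial fate. RUNX1 and ETS proteins can bind DNA next to each other, and RUNX1 is required for the endothelial-hematopoietic transition.

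The sequences at 8 sites, chosen with their values known for the reason given beside each set, are shown as the 200 bp at the summit, on the plus strand of mm10 as RefSeq's GRCm38.p6 genome gives it. Capitals mark matches on either strand to any of 7 consensus sequences. These were ETS (the letters CAGGAAA as well as the forms CAGGAAG and further CCGGAAA along with the form CCGGAAG), RUNX (TGTGGTT), a short RUNX form (TGTGGT as well as the form TGCGGT, so that every RUNX match also holds a short one), a motif of GATA factors (AGATAA), AP-1 (TGACTCA), PU.1 (GAGGAAGT) and C/EBP (TTGCNNAA). Sites are named by the distance of the summit from the 5′ end of the gene along its strand. The first 3 are intronic sites of Etv6, at chr6:134186382-134186581, chr6:134189847-134190046 and chr6:134120054-134120253. The first is the strongest of the 50, the second is shown because it shares a stretch with the first, and the last was called only in the list labelled -DOX.
Etv6 +150.8 kb: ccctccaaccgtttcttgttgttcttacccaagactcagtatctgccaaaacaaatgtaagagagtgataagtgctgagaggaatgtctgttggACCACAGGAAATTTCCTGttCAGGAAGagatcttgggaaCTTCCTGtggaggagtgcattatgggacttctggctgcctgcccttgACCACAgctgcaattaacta
Etv6 +154.2 kb: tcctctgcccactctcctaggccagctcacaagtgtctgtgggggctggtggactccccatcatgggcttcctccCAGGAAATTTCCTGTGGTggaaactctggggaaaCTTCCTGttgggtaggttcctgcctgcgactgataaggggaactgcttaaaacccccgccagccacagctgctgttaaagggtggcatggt
Etv6 +84.5 kb: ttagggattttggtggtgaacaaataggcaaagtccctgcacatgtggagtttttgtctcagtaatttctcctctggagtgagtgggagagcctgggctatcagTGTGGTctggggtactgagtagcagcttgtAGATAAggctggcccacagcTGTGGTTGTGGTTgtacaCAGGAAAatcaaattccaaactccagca
The next are the strongest sites of Fli1, upstream of the gene at chr9:32556377-32556576, and of Erg, in an intron at chr16:95374978-95375177.
Fli1 -13.6 kb: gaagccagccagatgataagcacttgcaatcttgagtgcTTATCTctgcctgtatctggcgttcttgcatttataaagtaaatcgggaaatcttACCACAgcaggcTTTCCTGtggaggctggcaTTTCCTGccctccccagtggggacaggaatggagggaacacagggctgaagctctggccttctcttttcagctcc
Erg +211.5 kb: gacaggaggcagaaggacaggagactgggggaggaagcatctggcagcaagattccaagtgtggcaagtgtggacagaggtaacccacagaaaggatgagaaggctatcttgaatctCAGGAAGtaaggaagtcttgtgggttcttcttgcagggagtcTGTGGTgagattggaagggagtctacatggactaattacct
The Elf1 promoter at chr14:79480983-79481182 shows a strong site without any of the motifs, and the Etv2 promoter at chr7:30636409-30636608 and the site upstream of Gabpa at chr16:84814596-84814795 were called only in the list labelled +DOX.
Elf1 -0.1 kb: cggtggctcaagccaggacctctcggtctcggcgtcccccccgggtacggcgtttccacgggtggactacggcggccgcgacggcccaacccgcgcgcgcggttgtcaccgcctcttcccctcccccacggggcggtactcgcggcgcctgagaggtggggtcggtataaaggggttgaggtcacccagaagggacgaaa
Etv2 -0.7 kb: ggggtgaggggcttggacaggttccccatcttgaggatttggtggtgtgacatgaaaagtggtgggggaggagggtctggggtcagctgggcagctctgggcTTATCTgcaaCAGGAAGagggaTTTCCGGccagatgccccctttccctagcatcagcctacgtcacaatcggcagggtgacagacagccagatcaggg
Gabpa -20.2 kb: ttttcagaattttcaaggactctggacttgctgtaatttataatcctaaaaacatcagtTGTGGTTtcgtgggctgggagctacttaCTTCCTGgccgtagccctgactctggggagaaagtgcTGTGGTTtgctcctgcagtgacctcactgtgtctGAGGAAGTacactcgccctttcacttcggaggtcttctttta

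RUNX1 sites were found at all 10 loci, against 78.0% of 21938 protein-coding genes whose loci were defined alike. Each of the 10 held a summit of the list labelled -DOX and one of the list labelled +DOX, where 73.5% and 75.7% of protein-coding genes do. The ETS loci are longer, with a median of 183 kb against 117 kb, and per 100 kb the median was 2.42 sites against 1.84. Elf1 had 9 sites, Elk3 7, Etv6 and Elf4 6 each, Etv2 5, Fli1 and Erg 4 each, and Ets1, Ets2 and Gabpa 3 each. Etv2, the shortest of the genes, had the highest density, at 4.89 sites per 100 kb, and Erg the lowest, at 1.22. Of the 5 sites at Etv2, however, only 1 had its nearest start at Etv2 itself. A RUNX1 summit within 1500 bp of an own transcription start was present at 8 of the 10 genes, against 50% of protein-coding genes. The exceptions were Fli1 and Erg. Of the 50 sites, 12 lay at the promoter of the ETS gene, 20 in its introns and 18 outside the gene. Placed by the peak with the higher percentile, no site lay in an exon of the ETS gene itself beyond the promoters. Exons of other genes were not searched. Of the last 18, 7 lay within 1500 bp of the start of another gene, so that 19 of the 50 (38%, 95% Wilson interval 25.9 to 51.9) lay near a start, against 53.9% of all RUNX1 sites. One of the 10 ETS genes owned the nearest start at 25 of the 50.

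**Figure D1:**
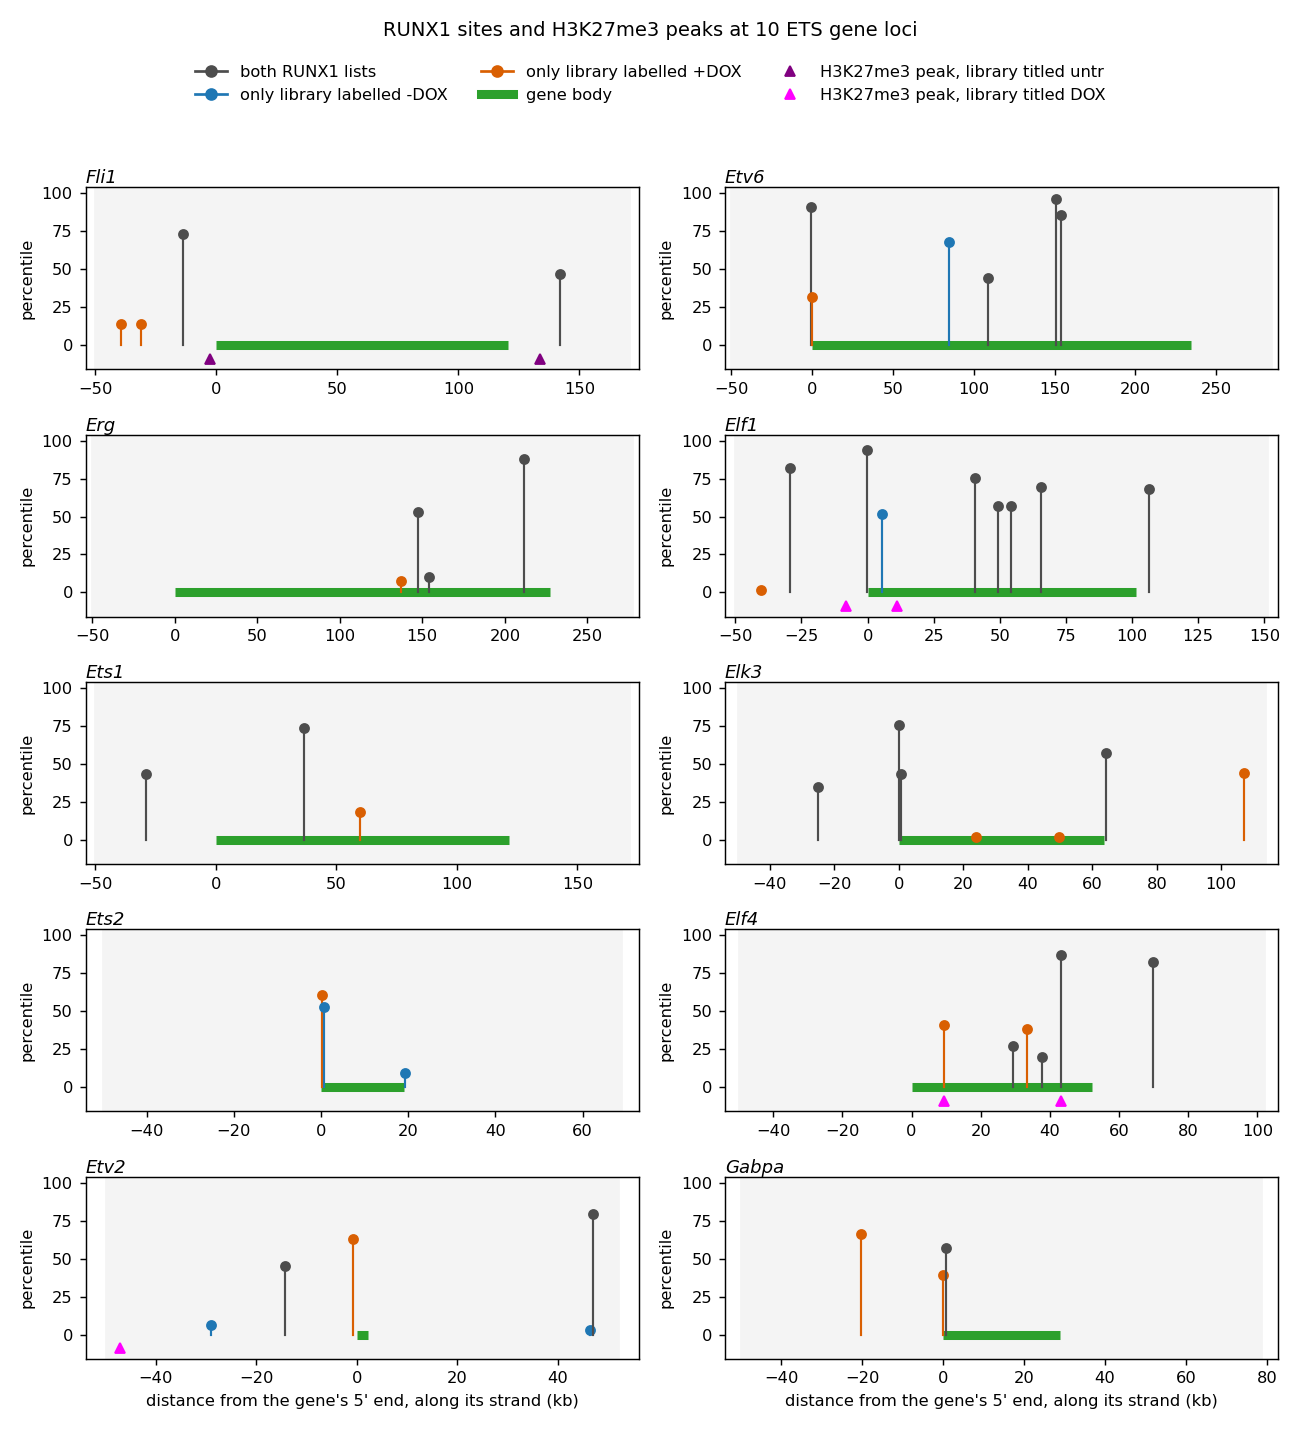
RUNX1 sites at the 10 ETS loci, with the distance from the 5′ end of the gene along its strand in kb on the x axis and the higher of the 2 percentiles of -log10 q within a list on the y axis. Grey, blue and orange mark sites of both RUNX1 lists, only the list labelled -DOX and only the list labelled +DOX, green bars the gene bodies, and triangles H3K27me3 peaks. Etv6 and Elf1 hold the highest sites, and Fli1 and Erg have none within 1500 bp of an own transcription start. The promoter sites of Ets1 and Elf4 lie at internal starts, away from the 5′ end.

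Etv6, which encodes a transcriptional repressor needed by adult hematopoietic stem cells and is a partner in leukemic gene fusions, held the strongest RUNX1 site of the 10 loci. This intronic site, at +150.8 kb, had a fold enrichment of 10.2 in the list labelled -DOX and 11.3 in the list labelled +DOX, at percentiles 94.8 and 96.2. A second intronic site lay 3465 bp further on, at +154.2 kb, with folds of 6.57 and 7.13 and percentiles of 83.3 and 85.7. Both were thus strong in both lists. Gm17088 owns the nearest start of both, 14475 and 17940 bp away, and Etv6 the nearest protein-coding start. In each window an ETS and a short RUNX match share 2 bases, as ACCACAGGAAA at chr6:134186476-134186486 on the plus strand and as the same letters on the minus strand at chr6:134189929-134189939. Such an overlap was found at 184 of all 24972 RUNX1 sites, or 0.737% (95% Wilson interval 0.638 to 0.851), and at 1.18% of those over 1500 bp from every start. It was searched for after these windows had been read. The match extends to 18 bases, ACCACAGGAAATTTCCTG at +150.8 kb and its reverse complement CAGGAAATTTCCTGTGGT at +154.2 kb. In the assembled chromosomes of mm10 these 18 bases occur 2 times on either strand, at these 2 sites. The Etv6 promoter had a site at -479 bp with folds of 6.81 and 8.36 (percentiles 84.9 and 90.9), and 712 bp on a weaker site called only in the list labelled +DOX (percentile 31.9). The intronic site at +84.5 kb was called only in the list labelled -DOX, with a fold of 6.59 and a -log10 q of 12.6 (percentile 68.2). It holds 2 overlapping RUNX matches, an ETS match 6 bases from the nearest short RUNX match, and a GATA match. A non-coding gene, Gm43984, owns the nearest start. A weaker site at +109.1 kb was in both lists, at percentiles 31.8 and 43.9, with ETS, GATA and short RUNX matches. Its nearest start is also that of Gm17088.

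Erg, whose product maintains hematopoietic stem cells, had all 4 of its sites in introns and nearer to the 3′ end. The strongest, at +211.5 kb, lay 84167 bp downstream of an internal transcription start of Erg at 95459245 on chromosome 16, and Gm31641 owns the nearest start. Its folds were 9.45 and 7.89, at percentile 88.1 in the list labelled -DOX and 76.9 in the list labelled +DOX. An intronic stem cell enhancer of Erg is known, and whether this is the same element was not tested. The site at +147.3 kb stood at percentile 16.2 in the list labelled -DOX and 53.3 in the list labelled +DOX, with no consensus match, and those at +154.3 and +137.0 kb stood at percentile 10.3 or lower. Fli1, the closest relative of Erg and a driver of the megakaryocytic fate, had its strongest site upstream, at -13.6 kb, with folds of 7.07 and 6.16 and percentiles of 73.0 and 64.4. In its window a short RUNX and an ETS match lie 6 bases apart, with a second ETS match and a GATA match. Another site in both lists lay at +142.1 kb, beyond the gene, where Kcnj1, a potassium channel gene, owns the nearest start (percentiles 46.8 and 33.3). The remaining 2, at -31.1 and -39.3 kb, were called only in the list labelled +DOX, both at percentile 13.55. Gm47680 owns the nearest start of the site at -39.3 kb. Of the sites in both lists, both of Fli1 and the strongest of Erg had the lower percentile in the list labelled +DOX, and the other 2 of Erg the higher.

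Ets1 and Ets2 encode the founding members of the family and respond to RAS and MAP kinase signaling. Fli1 and Ets1 are neighbours, 93.4 kb apart, so their upstream sites lie between both genes. Erg and Ets2 are neighbours too, 115.5 kb apart, but no site in either locus lay upstream of its gene. Ets1 had an intronic site at +36.4 kb with a fold of 6.83 in the list labelled -DOX and 4.27 in the list labelled +DOX. Its percentile was 73.9 against 19.5, the largest drop in the list labelled +DOX among the 29 sites in both lists. Its upstream site at -28.9 kb stood at percentiles 43.6 and 35.0, and neither window holds a consensus match. Gm47680 owns the nearest start of the upstream site. At an internal start of Ets1, 9 bp away, a weak site was called only in the list labelled +DOX (percentile 18.45). Ets2 was the only one of the 10 genes without a site in both lists, which 69.4% of protein-coding genes have. At its promoter each library had a summit of its own, at 128 bp in the list labelled +DOX (fold 5.52, percentile 60.8) and at 628 bp in the list labelled -DOX (fold 4.89, percentile 52.9). The summits lay 500 bp apart and each peak overlapped a peak of the other list, so both lists hold a peak at this promoter and the class rests on the summit position. The third site of Ets2, at +19.4 kb and just beyond its 3′ end, was weak and called only in the list labelled -DOX (percentile 9.46), and it holds a RUNX match.

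Etv2, which starts the hemangioblast program and is then switched off, had a promoter site at -657 bp that was called only in the list labelled +DOX. Its fold was 5.97, its -log10 q 11.4 and its percentile 62.7, and no peak of the list labelled -DOX overlapped it. Its window holds 2 ETS matches and a GATA match beside them, and neither RUNX form. The other 4 sites lay at the starts of neighbouring genes. The strongest, at +47.1 kb, lay 66 bp from a start of Kmt2b, a histone methyltransferase gene, at percentile 48.1 in the list labelled -DOX and 79.1 in the list labelled +DOX. The site 24 bp from a start of Rbm42 was in both lists (percentiles 39.0 and 44.9), and those at Haus5 and Mir3569 were weak and called only in the list labelled -DOX (percentiles 6.27 and 2.88).

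Elf1, an activator in lymphoid and myeloid cells, had 9 sites. Its promoter site at -111 bp had folds of 6.30 and 6.04 and percentiles of 93.8 and 92.9. Wbp4 starts on the opposite strand within this promoter and its gene body covers the summit, so the position does not tell the 2 genes apart. Of the 5 intronic sites, 4 were in both lists, between +40.8 and +65.7 kb. Their percentiles ran from 9.59 to 69.7 in the list labelled -DOX and from 56.6 to 75.3 in the list labelled +DOX, and each was higher in the latter. The site at +54.3 kb showed the largest rise of the 29, from percentile 9.59 to 56.8, and the site at +5.6 kb was called only in the list labelled -DOX (percentile 51.4). Wbp4 owns the nearest start of the site at +5.6 kb, and Gm27857 that of the site at +65.7 kb. Outside the gene, 2 sites in both lists lay 58 bp from the start of Kbtbd6 (percentiles 66.6 and 81.8) and 39 bp from that of Sugt1 (51.0 and 68.0), and a weak one at -40.4 kb, with GATA and AP-1 matches, was only in the list labelled +DOX (percentile 1.87). Elf4, which takes part in the control of quiescence in hematopoietic stem cells and CD8 T cells, lies on the X chromosome. It had 4 sites in both lists and 2 only in the list labelled +DOX. The strongest, in an intron at +43.1 kb, had folds of 7.83 and 10.3 (percentiles 76.2 and 87.2). All of its 200 bp is soft-masked as repeat in the reference, it holds no consensus match, and it is 1 of 2 sites that an H3K27me3 peak also overlaps. Repeats can take reads from other copies, and what this adds here was not tested. The site at +69.8 kb, in the neighbouring gene Bcorl1, stood at percentiles 82.5 and 78.4. The promoter site 464 bp from an internal start of Elf4 was called only in the list labelled +DOX (percentile 41.1), and the 3 other intronic sites of Elf4 stood at percentile 38.1 or lower.

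Elk3 encodes a ternary complex factor, which binds serum response elements with SRF and represses until MAP kinase signaling reaches it. It had 4 sites in both lists and 3 only in the list labelled +DOX. The promoter site at -14 bp had folds of 5.66 and 7.02 (percentiles 61.8 and 75.8), and a second promoter site 713 bp on stood at percentiles 15.6 and 43.2. The upstream site at -25.1 kb, which holds AP-1, PU.1, ETS and short RUNX matches, stood at 6.27 and 35.0. It lies inside Gm17745, which owns the nearest start, 835 bp away. Just beyond the 3′ end, at +64.2 kb inside Cdk17, a site with 7 short RUNX matches stood at 49.2 and 57.3. These matches follow each other on the same strand, and 45% of the window is soft-masked as repeat in the reference. All 4 sites in both lists had the higher percentile in the list labelled +DOX. Gabpa, the DNA-binding subunit of the widely expressed GA-binding protein, had its strongest site at -20.2 kb, inside the neighbouring gene Jam2. It was called only in the list labelled +DOX, with a fold of 6.90, a -log10 q of 12.5 and a percentile of 66.2, and no peak of the other list overlapped it. Its window holds 2 RUNX matches, an ETS match and a PU.1 match. Atp5j starts in the opposite direction at the same promoter and owns the nearest start of both sites there. The promoter had a site in both lists (percentiles 29.3 and 57.25) and another called only in the list labelled +DOX (percentile 39.1).

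The 50 sites were divided between the lists much as all RUNX1 sites were. In both lists were 29 of them, or 58% (95% Wilson interval 44.2 to 70.6), against 56.8% of all sites. Only in the list labelled -DOX were 6, or 12% (5.62 to 23.8), against 14.8%, and only in the list labelled +DOX 15, or 30% (19.1 to 43.8), against 28.4%. A site only in the list labelled +DOX was present at each of the 10 loci, where 48.0% of protein-coding genes have such a site, and a site only in the list labelled -DOX at 4, where 32.6% have such a site. With the libraries exchanged these counts change places. The loci of protein-coding genes are shorter, with a median of 117 kb against 183 kb. The Ets2 site only in the list labelled +DOX overlaps a peak of the other list. Sites of 1 list had a median percentile of 30.4 in the list labelled -DOX and 31.9 in the list labelled +DOX, where the medians over all sites of 1 list were 23.1 and 27.1. A -log10 q of 10 was reached by 4 of these 21, namely Etv6 +84.5 kb in the list labelled -DOX and the Etv2 promoter, the Ets2 promoter and Gabpa -20.2 kb in the list labelled +DOX. A peak of the other list overlapped 2 of the 21, both at the Ets2 promoter. Among the 29 sites in both lists, the percentile was higher in the list labelled +DOX at 20 and lower at 9, with a median change of 5.92 points, where the median over all sites in both lists was 1.83 points. The changes ran from -54.4 to 47.2 points, while 95% of all such sites lay between -40.1 and 50.2. Percentile 75 was passed in both lists by 7 sites, 3 of Etv6, 2 of Elf4 and 1 each of Elf1 and Erg, or 24.1% of the 29 (95% Wilson interval 12.2 to 42.1), against 25.6% of all sites in both lists. In the list labelled -DOX 7 of 35 sites passed it (20%, against 25.7% of all sites), and in the list labelled +DOX 11 of 44 (25%, against 25.6%). The median percentiles of the 29 were 49.2 and 57.3, below the 59.8 and 65.0 of all sites in both lists. A peak above percentile 75 in at least 1 list was present at 6 of the 10 loci, against 47.6% of protein-coding genes, whose loci are shorter.

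**Figure D2:**
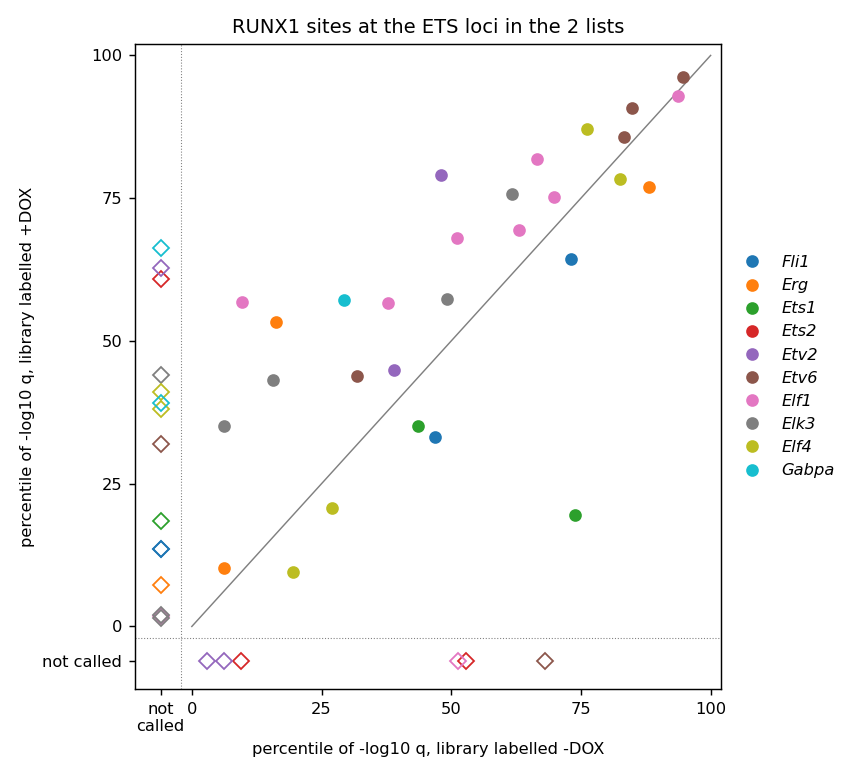
Percentile of -log10 q of each of the 50 RUNX1 sites in the list labelled -DOX (x axis) and the list labelled +DOX (y axis), coloured by gene, with filled points for sites in both lists and open diamonds in the margins for sites of 1 list. Above the line lie 20 of the 29 sites in both lists, and Ets1 +36.4 kb lies farthest below it.

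At sites over 1500 bp from every transcription start, the ETS consensus was found at 18 of 31, or 58.1% (95% Wilson interval 40.8 to 73.6), where 33.4% of all such RUNX1 sites hold it (32.5 to 34.2). Nearer to a start it was found at 6 of 19 (31.6%), against 26.9%. Over all 50 sites the share was 48% (34.8 to 61.5), against 29.9%. With the GGAA core alone no such excess was seen, at 88% of the 50 against 87.0% of all sites, and at 93.5% against 90.3% of the distant ones. Most sites hold this core, which leaves little room for an excess, so the core alone cannot decide whether there is an excess. Sites of 1 locus share their surroundings, so these are counts of sites and not of independent genes. The intervals treat the sites as independent and are not adjusted for the number of consensus sequences searched. The RUNX consensus was found at 4 of the 50 (8%, 3.15 to 18.8), against 14.2%, and the short form at 17 (34%, 22.4 to 47.8), against 37.4%. The 4 with the RUNX consensus, Etv6 +84.5 kb, Gabpa -20.2 kb, Elk3 +49.7 kb and the site beyond Ets2, were each called in 1 list only, which makes 0 of 29 sites in both lists and 4 of 21 of 1 list (19.0%). Over all RUNX1 sites the shares were 13% and 15.9%. ETS and short RUNX matches stood in the same window at 10 of the 31 distant sites (32.3%, 18.6 to 49.9), against 16.9%. Over all sites this was so at 11 of 50 (22%, 12.8 to 35.2), against 11.9%. Of these 11, 10 had 50 or fewer bases between the matches, against 68.5% of all RUNX1 sites with both. No interval was computed for this small count, so it does not show a closer spacing at the ETS loci. The 2 Etv6 sites that share a stretch of 18 bases are among the 10. The 11 belong to Etv6 (4), Fli1 (2), Elk3 (2), and Erg, Elf4 and Gabpa (1 each). ETS and GATA matches occurred together at 6 sites (12%, 5.62 to 23.8), against 4.06%, at Fli1, Etv6, Etv2 and Elf1. GATA was found at 14% of the 50, PU.1 at 8%, and AP-1 and C/EBP at 4% each, near the shares of all RUNX1 sites, which were 11.7%, 4.66%, 4.97% and 6.46%. None of the consensus sequences was found at 18 sites (36.0% of all RUNX1 sites have none), among them 7 of the 12 promoter sites. A match is a description of the letters and does not show which factor was bound.

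**Figure D3:**
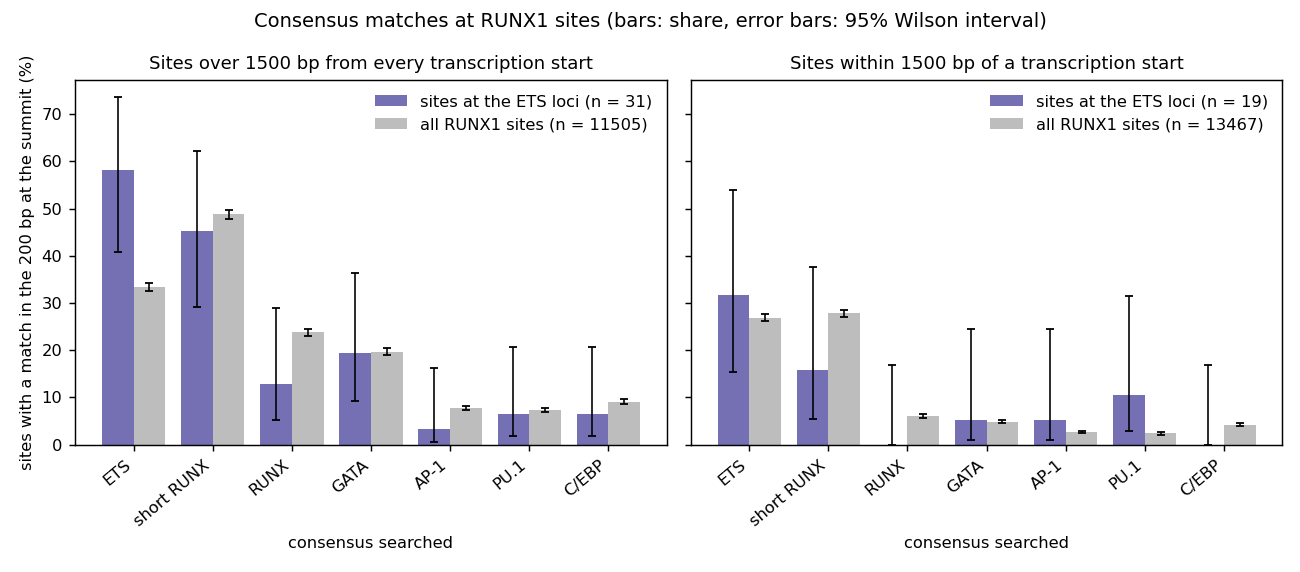
Share of RUNX1 sites with a consensus match in the 200 bp at the summit (y axis, %), for sites over 1500 bp from every start on the left and nearer ones on the right, with 95% Wilson intervals as error bars. The interval of the ETS consensus at the 31 distant sites of the ETS loci, 40.8 to 73.6%, lies above the 33.4% of all distant sites, and for the other consensus sequences on the left the intervals include the share of all sites.

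RefSeq (GRCm38.p6) gave short promoter windows, mostly upstream of the start, for 8 of the 10 genes, 12 in all. The ETS consensus was found in 6 of these 12, at Erg, Etv2, Etv6, Elk3, Elf4 and Gabpa, where 30.9% of 32851 promoters hold it. Neither RUNX form was found in any of them, against 5.27% of all promoters for the RUNX consensus and 22.4% for the short form.

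H3K27me3, the mark that Polycomb repressive complex 2 sets on silent genes, was called at 4 of the 10 loci, Fli1, Etv2, Elf1 and Elf4, against 40% of protein-coding genes. The library titled untr had peaks at 1 of the 10 and the library titled DOX at 3, where 33.2% and 35.3% of protein-coding genes have one, and no peak was in both lists. Fli1 had 2 in the library titled untr, at -2773 bp (fold 4.29, percentile 5.06) and beyond the gene toward Kcnj1 (fold 5.34, percentile 27.6). The other 5 were in the library titled DOX. Elf1 had 2 of them, both weak, at -8013 and 11048 bp (percentiles 12.9 and 17.9), and Etv2 had 1, at -47154 bp (percentile 35.9), with no peak at its promoter. Wbp4 owns the nearest start of both Elf1 peaks, 944 bp from the one at -8013 bp, and Pmis2 that of the Etv2 peak. The 2 of Elf4 were the strongest, in the intron (fold 7.19, percentile 77.1) and at the internal promoter (fold 6.79, percentile 71.7). Both overlapped RUNX1 sites, with summits 41 and 126 bp from those of RUNX1, and the other 5 overlapped none. Thus 2 of the 50 widened RUNX1 sites were overlapped, at least in part, by an H3K27me3 peak, against 7.76% of all RUNX1 sites. The peaks were 74 to 338 bp wide, and depth was not known, so a peak that was not called does not show that the mark is absent.

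The other 16 ETS genes searched alike, Spi1, Spib, Spic, Elf2, Elf3, Elf5, Ehf, Elk1, Elk4, Etv1, Etv3, Etv4, Etv5, Erf, Fev and Spdef, had a median of 2 RUNX1 sites per locus, against 4.5 for the 10 and 3 for protein-coding genes. Loci differ in length, and per 100 kb the medians were 1.58 for the 16, 2.42 for the 10 and 1.84 for protein-coding genes. RUNX1 sites were present at 14 of the 16, and 8 had a summit at an own start. Most were at Elf2 (10), Erf (9) and Spi1 (8), the gene of PU.1, and Ehf and Etv1 had none. H3K27me3 peaks were called at 6, and Fev, a serotonergic neuron factor, had the most, 7 in the library titled untr and 10 in the library titled DOX, beside 1 weak RUNX1 site (percentile 13.55). By presence in the 4 lists, Erg, Ets1, Ets2, Etv6, Elk3 and Gabpa, with RUNX1 peaks of both lists and no H3K27me3, were matched by 6 of the 16, Spi1, Spib, Spic, Elf2, Elf5 and Erf. Etv2, Elf1 and Elf4, with H3K27me3 only in the library titled DOX, were matched by Elf3, and Fli1, with H3K27me3 only in the library titled untr, by Elk1.

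**Figure D4:**
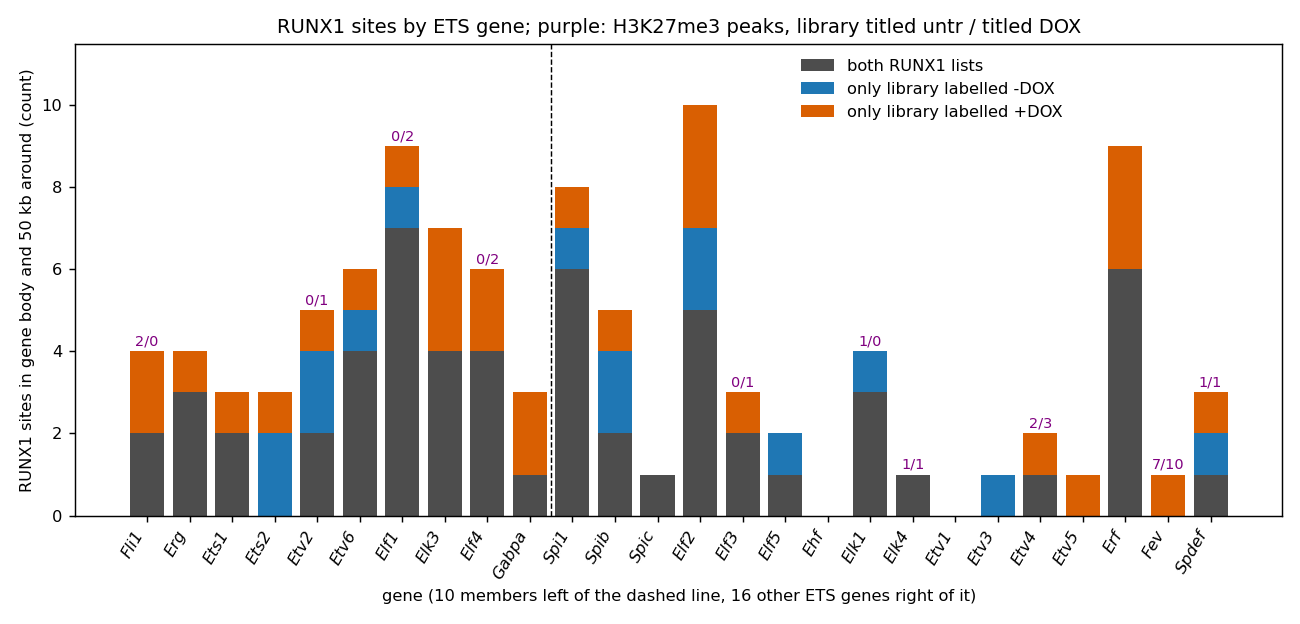
RUNX1 sites (y axis, count) within the gene body and 50 kb around it for the 10 ETS genes described and the 16 others, stacked by list, with H3K27me3 peaks of the library titled untr and the library titled DOX above the bars in purple. Elf1 with 9, Elf2 with 10 and Erf with 9 are the highest, and Fev has 1 RUNX1 site beside 7 and 10 H3K27me3 peaks.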

How the data were processed

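The authors deposited 1 narrowPeak list per library. Per the labels' processing notes reads were aligned to mm10 with Bowtie2 2.2.9 and peaks called with MACS2 2.1.1. The paper's methods for the RUNX1 libraries name another Bowtie2 version, trimming, removal of duplicates, a q-value threshold of 0.05 and filters against blacklisted and repeat regions. Whether the deposited lists were filtered this way was not tested. The lists hold a ratio, the fold enrichment over local background, and the -log10 of p-value and q-value, deposited per peak. Whether an input control was used is not given in the sources used here. The methods do not describe the H3K27me3 libraries, and how their lists were made is otherwise as per the labels.

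Peaks on the assembled chromosomes were used (146 to 300 per list lay elsewhere). Genes and transcription starts came from GENCODE's mouse annotation of mm10, and a promoter was 1500 bp to either side of a start. Sites, consensus matches and Wilson intervals were computed in Python 3.11.15 with numpy 2.4.6, scipy 1.17.1 and pysam 0.24.0, figures with matplotlib 3.10.9. The site building and motif search were tested on simulated data. A site took its window and place from the peak with the higher percentile. All 10 genes were described, in detail for the strongest and promoter sites, the H3K27me3 peaks and the sites of 1 list with a -log10 q of at least 10. Other sites were picked after their values were seen. Genes and lists were chosen with earlier results of these data known, and the Etv6 stretch was picked after its sequence was seen. Alternatives changed the size of the locus, the q-value threshold, the extension, the overlap rule, the length of the lists, the motifs and the labels. After the data were seen, they also changed the nearest coding start and the sites overlapped by H3K27me3 peaks.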

Additional observations from a re-analysis of the deposited data

How the results depend on the processing

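Of 80 values recomputed under alternatives, 56 stayed within 1.5 times a count or within the interval of a share, and 24 moved. With sites counted only where the nearest start was that of an ETS gene, the RUNX1 sites fell to 25, with 14 in both lists, 2 only in the list labelled -DOX and 9 only in the list labelled +DOX, and H3K27me3 regions to 3 at 2 genes. With the nearest protein-coding start, an alternative chosen after seeing the data, sites only in the list labelled -DOX were 3, and H3K27me3 regions 3 at 2 genes. At a -log10 q of at least 5, H3K27me3 regions were 2, at 1 gene. At 10 they were 0, at 0 genes, and the RUNX1 sites 21, with 12 in both lists, 2 only in the list labelled -DOX and 7 only in the list labelled +DOX. With the 5000 strongest peaks these 3 classes held 6, 3 and 2 sites. With the libraries exchanged, 15 sites were only in the list taken as -DOX and 6 only in the list taken as +DOX. The share with a RUNX match was 34% for the short form. With any GGAA for ETS it was 88%, against 87.0% of all RUNX1 sites. The excess of the ETS consensus was thus not seen with the core, and the cause was not tested. Most sites hold the core, which leaves little room for an excess, so this alternative cannot decide whether there is an excess. RUNX1 was present at 9 or 10 of the 10 loci under the alternatives run for that count. At a -log10 q of at least 10 it was present at all 10. The share of protein-coding genes was not computed under these alternatives. Whether the ETS loci differ from other genes there was therefore not tested, for RUNX1 or for H3K27me3. The locus limit decides some sites: inside it the farthest lay 44750 bp from the gene body of Etv2 (percentile 79.1), and just outside, 54627 bp from that of Elf1, lay a site at percentile 98.45. With 1 library per condition no replicate could be left out. No paired analysis was possible because each group has 1 library.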
